A study of Mus musculus with 10 samples.

Results

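The signals of 9 genes that build the inner ear were examined in the adult cochlea: Pou4f3, Gfi1, Atoh1, Sox2, Pax2, Gata3, Eya1, Dlx5 and Isl1. Every probe set whose platform gene symbol was one of these names, or an older name of the gene, was taken. That gave 11 probe sets of 8 genes out of 45037 probe sets measured. Of the 9 genes, Pax2 had no probe set under its name or its older names in the platform table, and its level is not analysed here. A probe set was called dim where its mean log2 signal over all arrays lay below the median of all probe sets, a signal of 577.4, and 4 of the 11 were dim. These were the only probe sets of Pou4f3 and Atoh1 and 2 of the 3 probe sets of Eya1.

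The cochlea is the hearing organ, and the arrays held RNA of whole cochlea tissue from male mice aged 9 months. The groups were PolgD257A/D257A mice (5 arrays, called D257A here) and Polg+/+ mice (5 arrays, called wild-type). Polg is the gene of the enzyme that copies mitochondrial DNA. The D257A form lacks proofreading, so that mutations accumulate in mitochondrial DNA, and mice that carry it on both alleles age early. The labels do not say whether RNA of several animals was pooled, and the design text states that replicates were not made. Each n below is a number of arrays, and p-values cover only the spread from array to array, which may be technical. RNA was taken from mixed tissue, so fewer cells of a type and less RNA per cell cannot be told apart.

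These genes act in sequence as the ear forms. Eya1 acts in the otic placode, and Pax2, Gata3, Dlx5 and Isl1 pattern the otic vesicle. Sox2 marks the prosensory cells, from which Atoh1 sets apart hair cells, and Pou4f3 and Gfi1 then keep hair cells alive. Several stay active in the adult ear or act in other tissues: Gfi1 in blood progenitors, Gata3 in lymphocytes, Dlx5 in bone and Sox2 in glia.

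Most of these genes encode proteins that bind DNA and can act on one another's promoters, so the sequence upstream of some of them is shown. RefSeq (GRCm38.p6) held promoter entries for 6 of the 9 genes used here. The 250 bases before the annotated start were searched on both strands for the E-box CANNTG, the letters bound by bHLH proteins such as ATOH1, and for AGATAA, which zinc finger factors of the GATA family bind. ACAAAG, a SOX site, and TAAT, the core bound by many homeodomain proteins, were searched as well. One sequence each is shown for 3 members that were not dim and had a match, with the matches in capitals. For Gfi1, which has 2 entries, the one with the match nearest its start is shown. The intervals are chr5:107725806-107726055 on the minus strand for Gfi1, chr3:34649745-34649994 on the plus strand for Sox2, and chr13:116309689-116309938 on the minus strand for Isl1, each printed 5′ to 3′ along its gene.
Gfi1: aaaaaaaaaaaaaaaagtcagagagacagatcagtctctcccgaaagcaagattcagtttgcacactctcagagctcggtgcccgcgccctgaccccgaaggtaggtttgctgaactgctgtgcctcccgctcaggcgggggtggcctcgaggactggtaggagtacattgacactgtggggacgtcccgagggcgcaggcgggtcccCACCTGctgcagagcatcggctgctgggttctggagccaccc
Sox2: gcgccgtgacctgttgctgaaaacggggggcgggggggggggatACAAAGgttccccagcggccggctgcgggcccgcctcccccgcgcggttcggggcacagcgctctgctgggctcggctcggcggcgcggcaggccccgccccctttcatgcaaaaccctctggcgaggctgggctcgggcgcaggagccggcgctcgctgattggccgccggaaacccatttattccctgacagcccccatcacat
Isl1: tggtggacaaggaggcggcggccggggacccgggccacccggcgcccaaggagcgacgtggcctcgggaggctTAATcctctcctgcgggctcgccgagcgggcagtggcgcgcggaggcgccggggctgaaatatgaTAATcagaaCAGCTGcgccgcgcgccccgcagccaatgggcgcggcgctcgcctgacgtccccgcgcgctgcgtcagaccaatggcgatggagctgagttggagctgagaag
The Gfi1 sequence held 1 E-box, 42 bases upstream of the start. The Sox2 sequence held 1 SOX match, 206 bases upstream. The Isl1 sequence held 2 TAAT matches, 177 and 112 bases upstream, and 1 E-box at 103, with no overlap between them. Gata3 and Atoh1 held none of the 4 motifs in this window, and AGATAA was in none of the 9 entries read. Such matches are common: 66.2% of 32851 upstream sequences of this length held the E-box, 54.9% TAAT, 16.5% ACAAAG and 9.99% AGATAA. A match is a description of letters and not a binding site.

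None of the 11 probe sets differed between the groups by the test. In limma over all 45037 probe sets, 0 of 11 reached an adjusted p of 0.05, against 1.31% of all probe sets (301 higher and 290 lower in D257A; 223 higher and 423 lower when arrays were centred on their median). At an unadjusted p of 0.05 the count was also 0 of 11, against 15.9% of all, and in 0 of 11 did the 5 D257A values lie wholly outside the wild-type range, against 4.58% of all. The log2 fold change was positive for 5 and negative for 6 (median -0.08, beside 0.09 over all probe sets). Its median size was 0.32 for the members and 0.30 over all probe sets. A p that misses the threshold does not show equal levels, so each difference is given with its 95% interval. For 8 of the 11 probe sets that interval lay within a 2-fold change in either direction. Fold changes are on the log2(signal + 16) scale and understate the change of dim probe sets.

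**Figure D1:**
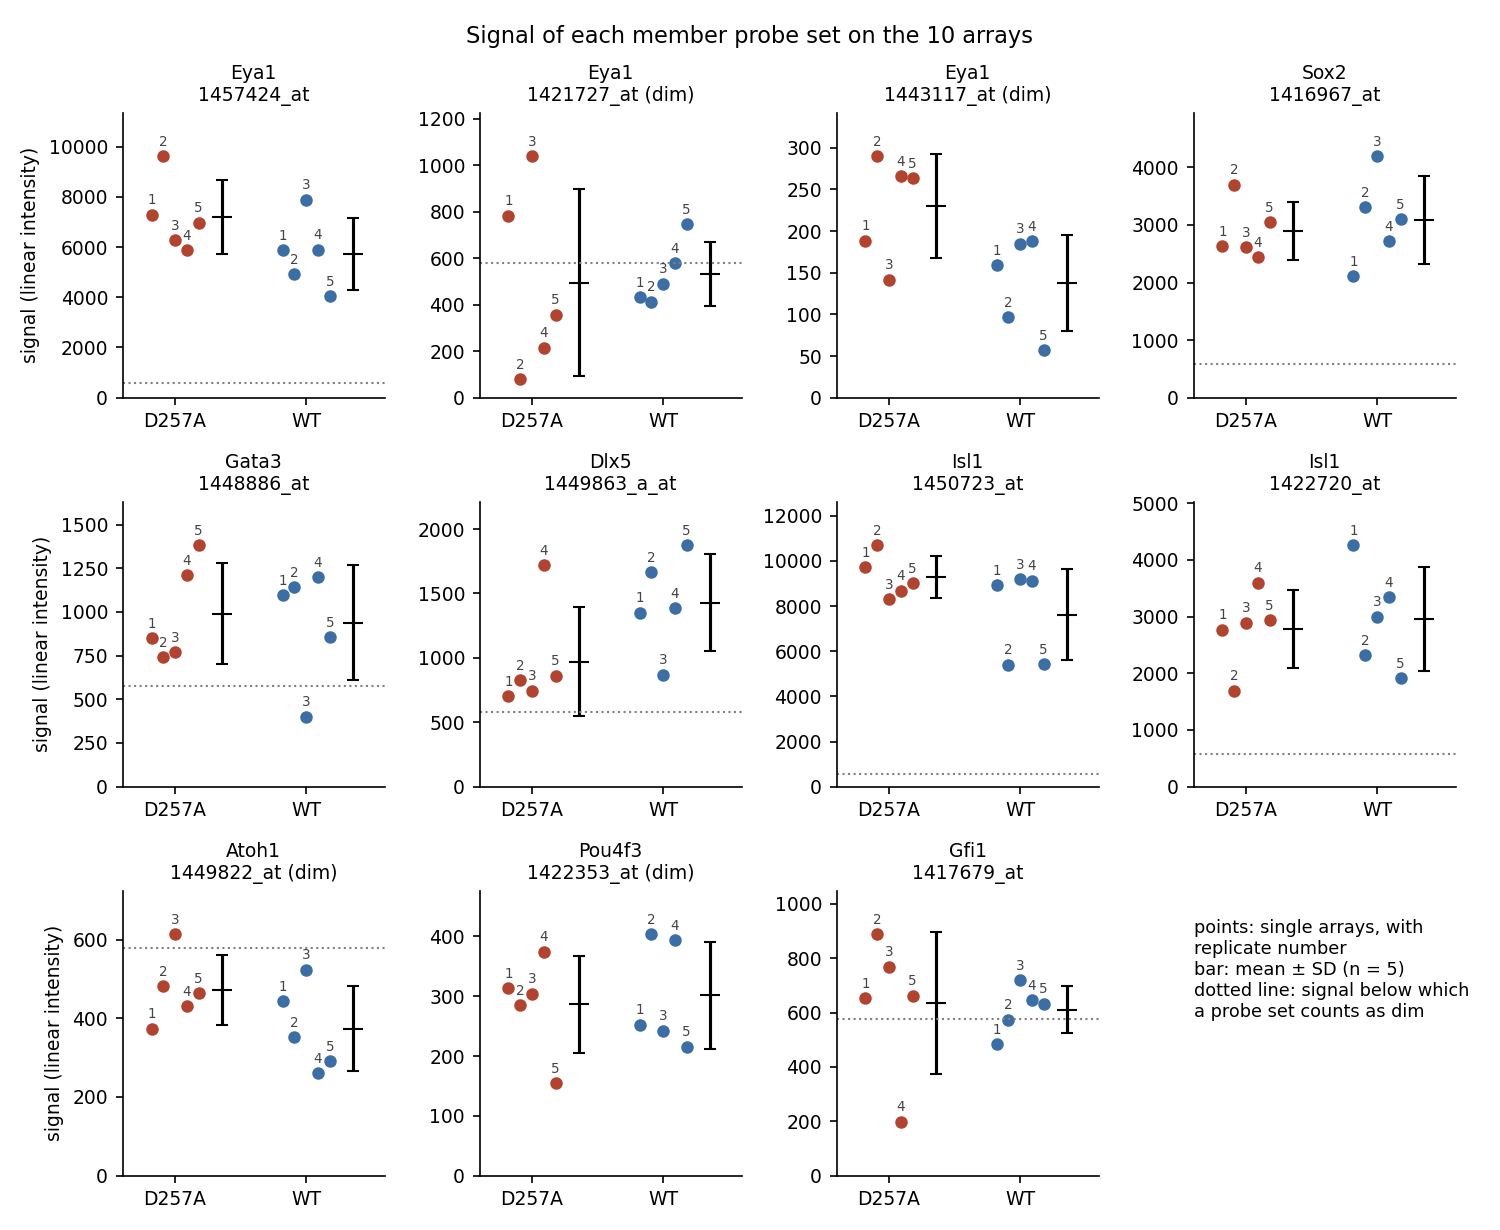
Signal (linear intensity) of the 11 probe sets on each array, D257A left and wild-type right. Points are single arrays with their replicate number, bars the mean ± SD of 5 arrays, and the dotted line the signal of 577.4 under which a probe set counts as dim. The groups overlapped in each panel; Dlx5 was lower on 4 of 5 D257A arrays than on any wild-type array.

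Genes of the placode and the otic vesicle came first in the order of development. Eya1 (chromosome 1, 14168953 to 14311035) encodes a transcriptional coactivator and phosphatase whose loss in humans causes branchio-oto-renal syndrome with deafness. Its probe set 1457424_at, the one that was not dim, measured 7292.2, 9610.5, 6264.1, 5864.3 and 6966.9 in D257A replicates 1 to 5. It measured 5868.4, 4908.1, 7889.7, 5892.3 and 4033.3 in wild-type replicates 1 to 5. D257A replicate 2 was highest and wild-type replicates 5 and 2 were lowest, and the groups overlapped. The log2 fold change was 0.35 (95% interval -0.07 to 0.76, limma adjusted p = 0.412).

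The other Eya1 probe sets were dim and went opposite ways. Signals of 1443117_at were 188.6, 289.7, 141.9, 265.7 and 263.7 in D257A replicates 1 to 5, against 159.4, 96.9, 184.9, 187.9 and 57.2 in wild-type replicates 1 to 5. It was above the highest wild-type value on 4 of 5 D257A arrays, with a log2 fold change of 0.74 (-0.06 to 1.54, limma adjusted p = 0.352). It followed 1457424_at across arrays (Pearson r 0.815 over 10 arrays, a description). Probe set 1421727_at ran from 79.4 to 1038.1 in D257A and from 412.1 to 746.5 in wild-type cochleae, with a log2 fold change of -0.54 (-1.71 to 0.64, limma adjusted p = 0.674). This widest interval among the members went with 2 arrays above the dim line in each group. Its r with 1457424_at was -0.501, so the Eya1 probe sets disagree and the direction for the gene is not settled.

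Gata3 (chromosome 2, 9857078 to 9887953) encodes a zinc finger factor whose loss of 1 copy in humans causes hypoparathyroidism, deafness and renal disease. Its probe set 1448886_at measured 851, 741.5, 768.3, 1209.8 and 1381.1 in D257A replicates 1 to 5, and 1097.6, 1141.8, 400.1, 1200 and 854 in wild-type replicates 1 to 5. Wild-type replicate 3 was the lowest array and alone fell under the dim line, and D257A replicate 5 was the highest. The means were 990.3 ± 287.9 in D257A and 938.7 ± 328.6 in wild-type cochleae (SD, n = 5 each), with a log2 fold change of 0.13 (-0.54 to 0.79, limma adjusted p = 0.882). Its sign turned to -0.15 without wild-type replicate 3. Markers of T and innate lymphoid cells, where Gata3 is also active, were dim in 8 of 11 measured genes, and their summed signal was 6004 to 9080 in D257A and 4921 to 8861 in wild-type cochleae.

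Dlx5 (chromosome 6, 6877801 to 6882068), a homeodomain factor of the dorsal otic vesicle and of bone-forming cells, came nearest to a call. Probe set 1449863_a_at measured 703.8, 828.4, 743.4, 1719.2 and 860.9 in D257A replicates 1 to 5. It measured 1351.9, 1666.4, 869, 1385.2 and 1872.8 in wild-type replicates 1 to 5. On 4 of 5 D257A arrays it lay under the lowest wild-type value, while D257A replicate 4 had the second-highest signal of all arrays. The means were 971.1 ± 422.9 in D257A and 1429 ± 379.1 in wild-type cochleae (SD, n = 5 each), with a log2 fold change of -0.59 (-1.18 to 0.00, unadjusted p = 0.0506 and adjusted p = 0.316 in limma). Without D257A replicate 4 the log2 fold change was -0.81 and the adjusted p 0.113.

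Bone markers moved with Dlx5. The summed signal of 8 measured osteoblast and bone markers, none of them dim, was 12560 to 24950 in D257A and 22540 to 41900 in wild-type cochleae. D257A replicate 4 had the highest sum of its group and wild-type replicate 3 the lowest of its group, as for Dlx5. From high to low, both measures put the wild-type replicates in the order 5, 2, 4, 1 and 3, as did the summed hair cell markers. The orders differed in D257A, at 4, 5, 2, 3 and 1 for Dlx5 and 4, 3, 1, 5 and 2 for the bone sum. How many other sums or genes run as closely with Dlx5 was not counted. Over the 10 arrays the log2 bone sum and the Dlx5 signal had a Pearson r of 0.843 and a Spearman rho of 0.83. Permutation p-values were 0.00312 and 0.00511 (0.0281 and 0.034 adjusted over 9 such relations). The 9 relations were chosen after values were seen, so these p-values serve as a description only. The r was 0.835 without D257A replicate 2 and wild-type replicate 5, the arrays with the sums farthest from the median, and 0.776 once group means were subtracted. With the mean over the 8 genes of their log2 deviations, which weights each gene equally, r was 0.70 and rho 0.733, and r was 0.49 once group means were subtracted. In that list 0 of 8 genes were called higher and 1 lower, against 0.451% and 1.05% of all genes. The part of bone in the Dlx5 difference was not tested.

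Isl1 (chromosome 13, 116298270 to 116309688) encodes a LIM homeodomain factor of the prosensory region and of spiral ganglion neurons, and its 2 probe sets were not dim. The brighter one, 1450723_at, measured 9710.6, 10686.5, 8310.3, 8684.5 and 9025.5 in D257A replicates 1 to 5, and 8917.5, 5393.9, 9194.8, 9115.4 and 5425 in wild-type replicates 1 to 5. Wild-type replicates 2 and 5 stood apart below the other 8 arrays, which spanned 8310.3 to 10686.5. The log2 fold change was 0.32 (-0.08 to 0.73, limma adjusted p = 0.431). Its coefficient of variation was 10.1% in D257A and 26.4% in wild-type cochleae.

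The second Isl1 probe set, 1422720_at, gave 2765.9, 1690.4, 2894.8, 3600.3 and 2937.8 in D257A replicates 1 to 5 and 4256, 2314.6, 2996.2, 3340.9 and 1909.7 in wild-type replicates 1 to 5. D257A replicate 2, highest for the brighter probe set, was lowest here. The log2 fold change was -0.08 (-0.60 to 0.44, limma adjusted p = 0.91), and its sign turned to 0.11 with wild-type replicate 3 and D257A replicate 2 both left out. The 2 probe sets had an r of only 0.311 over 10 arrays. Summed markers of spiral ganglion and other neurons, 15 of 15 measured and none dim, were 196200 to 308100 in D257A and 227800 to 321100 in wild-type cochleae.

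Sox2 (chromosome 3, 34649995 to 34652461), the HMG-box factor that supporting cells of the adult organ of Corti and glia retain, showed close levels. Probe set 1416967_at measured 2634.3, 3697.8, 2616.7, 2441.3 and 3048.6 in D257A replicates 1 to 5, and 2113, 3312.7, 4190.7, 2722.3 and 3104.6 in wild-type replicates 1 to 5. All D257A values lay inside the wild-type range. The means were 2888 ± 504.7 in D257A and 3089 ± 766.7 in wild-type cochleae (SD, n = 5 each), a log2 fold change of -0.08 (-0.49 to 0.34, limma adjusted p = 0.887). Markers of supporting cells (10 measured, none dim) summed to 51430 to 85030 in D257A and 70700 to 97070 in wild-type cochleae. Over single genes of that list the median log2 fold change was -0.02, with 4 positive and 6 negative. Markers of Schwann and satellite glia (10 of 11 not dim) summed to 157200 to 188400 in D257A and 136800 to 198700 in wild-type cochleae.

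Of the 3 hair cell factors, 2 were dim. Atoh1 (chromosome 6, 64729125 to 64731245), the bHLH factor needed for hair cells to form, was dim, with 373.3, 482, 613.1, 430 and 463.4 in D257A replicates 1 to 5. In wild-type replicates 1 to 5 it gave 443.7, 351.2, 523.6, 261.1 and 290.2. Only D257A replicate 3 passed the dim line, and the log2 fold change was 0.35 (-0.23 to 0.93, limma adjusted p = 0.557). All D257A values were above the wild-type median, but only 1 of 5 was above the wild-type maximum.

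Pou4f3 (chromosome 18, 42394597 to 42396093), a POU-domain factor whose loss causes hearing loss in mice and humans, was dim on all 10 arrays. It gave 313.5, 284.6, 304.1, 374.6 and 154.6 in D257A replicates 1 to 5 and 252.2, 403.4, 242.1, 393.8 and 215.6 in wild-type replicates 1 to 5. The log2 fold change was -0.08 (-0.76 to 0.61, limma adjusted p = 0.934). That interval lies within a 2-fold change of this signal, and at a dim level the presence of the transcript was not shown. Hair cell markers as a whole had 8 of 15 measured genes dim, Slc26a5 (prestin, the outer hair cell motor) and Tmc1 (a transduction channel subunit) among them. Their sum was 49500 to 89080 in D257A and 62150 to 108900 in wild-type cochleae, and 0 of 15 were called. The summed signal rests on the brightest genes, and over single genes the median log2 fold change was 0.30, with 8 positive and 7 negative. Atoh1, which was dim, ran against this sum across the 10 arrays by rank (rho -0.806, permutation p = 0.00755, 0.034 adjusted over the 9 relations). It did not by Pearson's r after adjustment (r -0.663, 0.157 adjusted). The 9 relations were chosen after values were seen, so these p-values serve as a description only. The inverse relation was not seen with the mean log2 deviation of the 15 genes (rho 0.164, r 0.301). The remaining 7 relations of members with marker sums did not pass.

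Gfi1 (chromosome 5, 107716655 to 107725805), a zinc finger repressor of hair cells and of granulocyte progenitors, lay just above the dim line. Probe set 1417679_at measured 652, 887.8, 768.6, 199.1 and 661.5 in D257A replicates 1 to 5, and 484.8, 574.5, 720.2, 645.7 and 632.2 in wild-type replicates 1 to 5. D257A replicate 4 stood far below the other 9 arrays, and 2 D257A arrays lay above the wild-type maximum. The log2 fold change was -0.09 (-0.84 to 0.67, limma adjusted p = 0.933), and its sign turned to 0.27 without D257A replicate 4 (adjusted p = 0.57). Neutrophil and marrow progenitor markers (16 measured, none dim) summed to 117800 in D257A replicate 4, the lowest of its group, and to 188500 to 350800 on the other D257A arrays, against 116500 to 193900 in wild-type cochleae. In that list of 16, 2 genes were called higher and 1 lower, against 0.451% and 1.05% of all genes. Over the 10 arrays the log2 sum and the Gfi1 signal had a Pearson r of 0.587 and a Spearman rho of 0.588. This did not pass (permutation p = 0.157 and 0.241 adjusted over the 9 relations, chosen after values were seen). The r was 0.772 once group means were subtracted. The part of marrow cells in the Gfi1 signal was not tested.

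**Figure D2:**
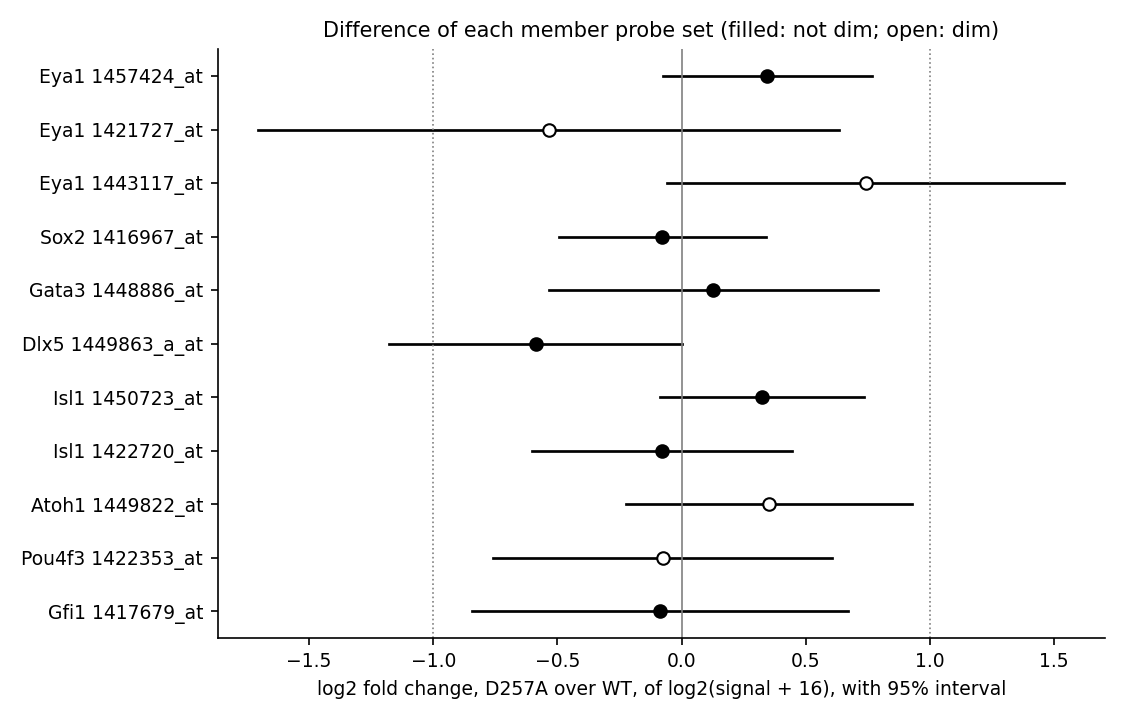
Log2 fold change of each probe set, D257A over WT, on the log2(signal + 16) scale, with its 95% interval from limma (n = 5 arrays each). Filled points are not dim and open points are dim; dotted lines mark a 2-fold change. The intervals cover 0 in each case, that of Dlx5 reaching from -1.18 to 0.00.

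Some members varied together from array to array. Among the 15 pairs of the 6 genes with a probe set that was not dim, taking the brightest of each, Eya1 and Dlx5 ran in opposite directions. Their Pearson r was -0.796 and Spearman rho -0.818 (permutation p = 0.0033 and 0.00597; 0.0247 and 0.0365 adjusted over 15 pairs). The r was -0.794 without D257A replicate 2 and wild-type replicate 5, and -0.712 once group means were subtracted. The brightest probe sets of Eya1 and Isl1 ran together. Wild-type replicates 5 and 2 were the lowest arrays for both and D257A replicate 2 the highest. In the second Isl1 probe set, 1422720_at, D257A replicate 2 was instead the lowest array, at 1690.4. For the brightest probe sets over the 10 arrays, r was 0.867 and rho 0.879 (permutation p = 0.00036 and 0.00167, or 0.0054 and 0.025 adjusted over 15 pairs). Wild-type replicates 2 and 5 stood apart in Isl1, so r was also taken over the other 8 arrays. There it was 0.832 with a rho of 0.786, a description only, since the arrays were left out by their Isl1 values. Without D257A replicate 2 and wild-type replicate 3 it was 0.578 over 6 arrays, so the relation rests in part on those arrays. Gfi1 and Eya1 passed by rank only (rho 0.806, permutation p = 0.0073, 0.0365 adjusted; r 0.339, 0.455 adjusted). No other pair passed after adjustment.

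Such correlations with Eya1 were common on these arrays. Of 11870 other genes that were not dim, 8.85% had an r with Eya1 at least as far from 0 as that of Dlx5, and 3.33% one at least as far from 0 as that of Isl1 over all 10 arrays. The genes most like each member, by Pearson r over the 10 arrays, were Tmsb4x (0.988) and Svip (0.98) for Eya1. They were Bex4 (0.965) and 2310067E19Rik (0.959) for Sox2, and Rspo2 (0.946) and Tmem184c (0.945) for Isl1. For Gfi1 they were Ucma (0.939) and Sertm1 (0.938), for Dlx5 Anapc2 (0.933) and Fbrs (0.928), and for Gata3 Gpsm3 (0.921) and Ttf2 (0.911). These 12 correlations were the highest of 11870 each and are given as a description.

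**Figure D3:**
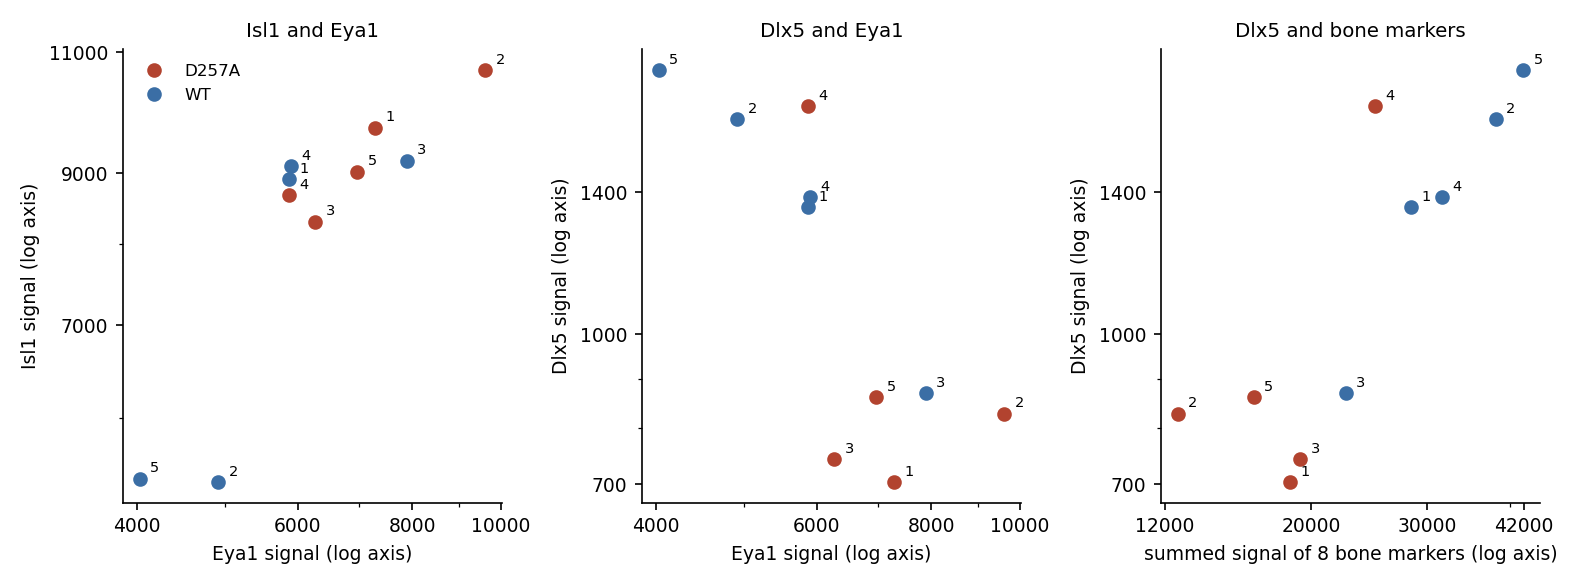
Signals on the 10 arrays (log axes, D257A and WT by colour, replicate numbers beside the points): Isl1 against Eya1, Dlx5 against Eya1, and Dlx5 against the summed signal of 8 bone markers. Each gene is shown by its brightest probe set. Wild-type replicates 5 and 2 are lowest in both Eya1 and Isl1, and Dlx5 is high on the arrays with a high bone sum.

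Other genes of otic development were taken from 3 lists, each gene by its brightest probe set. Of 46 measured transcription factors of the placode and vesicle, 1 was called higher and 0 lower, and 30 had positive log2 fold changes. By gene, 0.451% of 18193 genes were called higher and 1.05% lower. The median log2 fold change of the list was 0.15, beside 0.03 over all genes. The called gene was Nr2f2, an orphan nuclear receptor of the COUP-TF family. It measured 3786.3, 6714.9, 3724.8, 4533.9 and 3992.9 in D257A replicates 1 to 5, against 2272.4, 2727.9, 2555.4, 1814.9 and 2397.7 in wild-type replicates 1 to 5.

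The Nr2f2 groups did not overlap, and the log2 fold change was 0.92 (SE 0.19, limma adjusted p = 0.0315). Of 10 fits with 1 array removed, 3 kept the call, and the adjusted p was highest, at 0.0836, when wild-type replicate 5 was removed. The probe sets of Nr2f2 disagreed, with 4 of 6 positive and 2 negative and 1 called. The next brightest, 1416158_at, had means of 1805 ± 349.2 in D257A and 2144 ± 385.3 in wild-type cochleae (SD, n = 5 each; log2 fold change -0.25, limma adjusted p = 0.552). With the mean over its 6 probe sets, the log2 fold change was 0.25 (adjusted p = 0.592). A rise of the Nr2f2 transcript as a whole was therefore not shown.

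Of 41 measured factors of hair cell and neuron fate, 0 were called by limma, with 6 of 41 at an unadjusted p under 0.05 (16.2% of all genes) and a median log2 fold change of 0.16. The smallest p-values were those of Isl2, a relative of Isl1, and Zfpm2, a cofactor of GATA proteins. Isl2 measured 3014 ± 448.4 in D257A and 2034 ± 744.5 in wild-type cochleae (SD, n = 5 each; log2 fold change 0.62, limma adjusted p = 0.201). Zfpm2 measured 1014 ± 214.6 in D257A and 1826 ± 627.9 in wild-type cochleae (log2 fold change -0.77, limma adjusted p = 0.206). Zfpm2 passed once wild-type replicate 1 was removed (log2 fold change -1.05, adjusted p = 0.0348) and in no other such fit. Its second probe set was dim, and the mean over both gave a log2 fold change of -0.45 (adjusted p = 0.647).

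Among 58 measured ligands, receptors and pathway genes of otic patterning, 0 were called higher and 1 lower, and the median of the list was 0.08 on the log2 scale. The called gene was Aldh1a1, which encodes a retinaldehyde dehydrogenase that makes retinoic acid. It measured 8565.8, 8497.1, 9919.6, 6025.9 and 7685.5 in D257A replicates 1 to 5, against 12008.6, 14766.4, 18529.8, 12410.4 and 12696.6 in wild-type replicates 1 to 5. All D257A values lay below all wild-type values. Aldh1a1 fell by 0.79 on the log2 scale (SE 0.17, limma adjusted p = 0.0462), but with any 1 of the 10 arrays removed its adjusted p was over 0.05, at 0.0512 to 0.124. Groups did not overlap in 2 of the 58 genes, against 4.86% of all genes. These were Aldh1a1 and the Wnt receptor gene Fzd6, which was named after its values were seen. Fzd6 measured 2517 ± 107.4 in D257A and 1968 ± 316.8 in wild-type cochleae (limma adjusted p = 0.258).

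**Figure D4:**
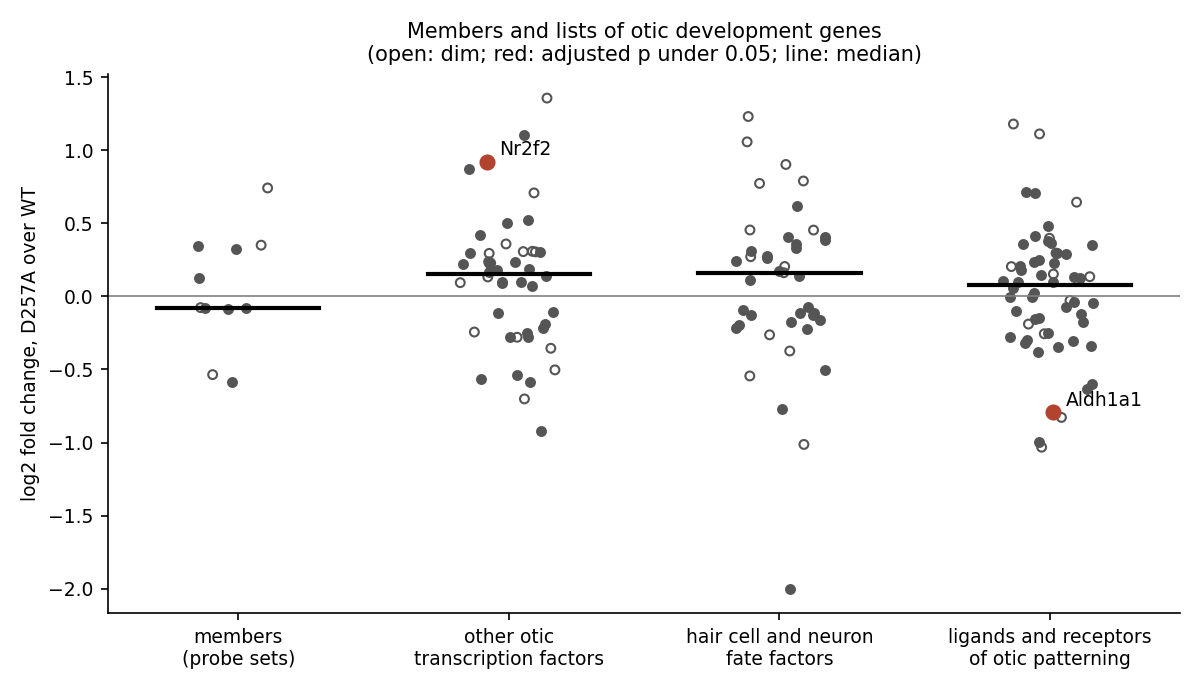
Log2 fold change, D257A over WT, of the 11 member probe sets and of the genes of 3 lists. Each point is a probe set or gene (open if dim), the line is the median, and red points have an adjusted p under 0.05 (Nr2f2 and Aldh1a1).

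The tissue label was checked on 14 cochlear marker genes, of which 13 were not dim, Tecta being the exception; their sum was 168500 to 250900 in D257A and 183600 to 260400 in wild-type cochleae. Markers of other tissues were also measured, by gene against the 1.05% of all genes called lower. Skeletal muscle markers summed to 11830 to 311400 in D257A and 201300 to 617900 in wild-type cochleae, with 7 of 19 called lower. Middle ear and airway epithelium markers summed to 82920 to 129300 in D257A and 199500 to 406000 in wild-type cochleae, with 6 of 16 called lower. Cerebellar neuron markers summed to 27750 to 38330 in D257A. They summed to 14820 in wild-type replicate 1 and to 61510 to 126200 on the other wild-type arrays. Of these genes 1 of 14 was called lower, and the median log2 fold change was -1.40, with 2 positive and 12 negative. Of these sums, only that of skeletal muscle was set beside a member, Eya1. That relation did not pass (Pearson r -0.314 and Spearman rho -0.467, permutation p = 0.813 and 0.401 adjusted over the 9 relations). The part of these tissues in the member signals was not tested. Polg itself measured 2751 ± 542.4 in D257A and 2792 ± 477.6 in wild-type cochleae (SD, n = 5 each; limma adjusted p = 0.965), which does not check the labels, since the mutation changes a single amino acid.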

How the data were processed

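Biotin-labelled cochlear RNA of 10 samples, grouped by title, was read on Affymetrix mouse arrays of 45101 probe sets, per the labels' protocols. The authors deposited a linear intensity for each probe set, and the submitters' processing notes name GCOS 1.3. How background was corrected, probes summarised and arrays scaled is not given in the sources used here. The trimmed mean (2% off each end) was 1494.4 to 1496.2, and the deposited scaling was left as it was; median signals were 551.7 to 649.3. The 64 control probe sets filled on 1 array were left out. No detection calls or scan dates were used, so no batch could be tested; the number of arrays limits the precision.

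The package limma 3.58.1 (R 4.3.3) was run on log2(signal + 16) with group as the only term and an intensity trend; tests were two-sided, with Benjamini-Hochberg adjustment over 45037 probe sets. No filter was used, so that dim members were tested. Of the probe sets, 34945 had 1 gene in the platform table, 932 several and 9160 none. For list genes the probe set with the highest mean signal was used. Named genes were all members, the called genes of each list or its 2 with the smallest p, the 2 genes most like each member that was not dim, marker sums and Polg. The members, lists, rule and alternatives were chosen with earlier results of these data known. The 9 relations of members with marker sums were chosen after values were seen, as was their repeat with mean log2 deviations. Permutation tests used 100000 resamples. The fit was tested on simulated data.

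Sample numbers 1 to 5 recur in both groups. The correlation of the deviations of same-numbered arrays from their group means ran from -0.135 to 0.092, so the values gave no sign of a pairing by number. The sample titles do not say whether same-numbered samples were handled together. Alternatives were a pseudocount of 1 or 64, centring arrays on the median, quantile normalization, the brightest 50% or 30% of probe sets, no intensity trend, array weights, the number as a block, arrays left out, looser thresholds and averaged probe sets for list genes.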

Additional observations from a re-analysis of the deposited data

Results flagged for a closer look

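In 30 groups of 5 arrays (each member probe set and each named list gene, per genotype), 3 held an array that stood apart from the other 4 on the log2 scale by more than Dixon's 95% critical value of 0.71 allows. Chance alone flags about 1 in 20 groups. For Gfi1, D257A replicate 4 was low, at a signal of 199.1 (gap over range 0.789). For Dlx5 the same array was high, at 1719.2 (0.776). For Zfpm2, wild-type replicate 1 was low, at 789.8 (0.76).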

How the results depend on the processing

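In each of the 22 alternatives run, 0 member probe sets were called. The fits on the brightest 50% and 30% of probe sets did not hold the dim members. That on the brightest 30% did not hold Gfi1, Gata3 and Dlx5 either, so these could not be called there. Pou4f3, Gfi1, Sox2, Gata3 and the Isl1 probe set 1422720_at, all near 0, changed sign in at least 1 setting. With array weights Gata3 was at -0.051 and Isl1 (1422720_at) at 0.0096, and with wild-type replicate 3 and D257A replicate 2 both left out they were at -0.057 and 0.11. When 1 array was left out, log2 fold changes ran from -0.18 to 0.12 for Pou4f3, -0.24 to 0.27 for Gfi1, -0.20 to 0.042 for Sox2, -0.15 to 0.24 for Gata3 and -0.22 to 0.089 for that Isl1 probe set. Centring arrays on the median moved the median log2 fold change of all probe sets from 0.09 to -0.01 and changed the sign of no member. The cause of these changes was not tested.

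The number of calls over all probe sets (591) was 322 among the brightest 30% and 384 without the intensity trend. It was 1178 with array weights, 1497 at an adjusted p of 0.1 and 7144 at an unadjusted p of 0.05 with a fold over 1.1. Higher calls numbered 131 among the brightest 30% and 623 with array weights. Lower calls numbered 191 among the brightest 30%, 166 without the trend and 555 with array weights. Leaving out 1 array gave 185 (without wild-type replicate 2) to 738 (without wild-type replicate 3) calls, 89 to 411 higher and 96 to 327 lower. With the replicate number as a block, although the values gave no sign of a pairing by number, 184 were called, 72 higher and 112 lower. Among these calls were 0 members and 0 genes of the 3 lists. Among list genes the calls of Nr2f2 and Aldh1a1 were lost without the trend (adjusted p = 0.0754 and 0.0976; 0 calls in each list) and that of Aldh1a1 with both arrays left out (0.0726). Of otic transcription factors and of patterning genes, 2 each were called with array weights. Of the transcription factors 2 were called with both arrays left out, and 1 with the mean over probe sets, which was Pou3f4 and not Nr2f2 (log2 fold change 0.62 over 2 probe sets, adjusted p = 0.0217, against 0.23 and 0.459 for its brighter one). Leaving out 1 array gave 0 to 2 calls among transcription factors, 0 to 2 among fate factors (2 without wild-type replicate 1) and 0 to 1 among patterning genes.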
